A study of Mus musculus with 5 samples.

Results

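The 37 genes described here encode the contractile and adhesion machinery of non-muscle cells: actin-binding proteins of the thin filament, non-muscle myosin, actin crosslinkers, proteins of focal adhesions, and the SRF transcription factor with its MRTF partners. They were taken by mouse gene symbol, with the actin genes themselves left out, and all 37 were found among 22885 annotated gene models of at least 2000 bp. Engaged RNA polymerase was measured over them by global run-on sequencing (GRO-seq), in which nuclei are isolated and their polymerases allowed to run on for a short time with bromouridine, so that an antibody can pull out the newly made RNA for sequencing. A read gives the position and strand of an engaged polymerase and not the amount of stable RNA.

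The comparison is between 2 cell types, both from the cross C57Bl/6(f) x 129/Sv(m). MESC were V6.5 embryonic stem cells at passage 12 to 14, grown on irradiated feeder cells in medium with 15% serum and LIF, and sampled 3 times. MEF were mouse embryonic fibroblasts from male E13.5 embryos, at passage 2, sampled 2 times, in the same base medium with 10% serum and without LIF. Serum, LIF and feeders therefore differ together with the cell type and cannot be told apart from it. The deposited files pool the samples of a cell type, so each value below comes from 1 pooled library per cell type, with no replicate check and no test across samples. All intervals are exact at the 95% level and reflect the error of counting alone, and since no molecular identifiers are described, some reads may be copies of 1 molecule.

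In a contracting cell, bipolar filaments of non-muscle myosin pull on actin filaments that tropomyosin, calponin, caldesmon and transgelin line and that alpha-actinin, filamin and palladin crosslink. The bundles end at focal adhesions, where talin and vinculin couple actin to integrins and where LIM-domain proteins such as zyxin and paxillin gather. Many of these genes are known targets of SRF, which binds the CArG box and is switched on by the MRTF proteins (Mkl1 and Mkl2) when monomeric actin is depleted. Fibroblasts spread on plastic are rich in such bundles, while embryonic stem cells grow as compact colonies.

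Promoters of 5 of the 37 genes held a CArG box between 250 bases before and 50 bases after the annotated start with the most reads, among them Myl9, Cnn2, Flna and Srf. Over all 19893 models without a same-strand overlap, 1.33% of promoters of the same length held one, and so did 1.18% of the 6683 with at least 20 reads. These 4 promoters are shown, 5′ to 3′ on the strand of the gene, from build mm9, because the box is the known binding element of SRF. Capitals mark the CArG boxes.
Myl9 (chr2:156600940-156601239, plus strand): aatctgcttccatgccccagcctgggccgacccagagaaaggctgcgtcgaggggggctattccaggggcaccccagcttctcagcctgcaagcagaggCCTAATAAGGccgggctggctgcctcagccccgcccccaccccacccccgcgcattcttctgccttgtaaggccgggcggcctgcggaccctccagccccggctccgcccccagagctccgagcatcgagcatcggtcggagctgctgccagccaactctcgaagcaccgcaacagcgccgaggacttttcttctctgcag
Cnn2 (chr10:79451118-79451417, plus strand): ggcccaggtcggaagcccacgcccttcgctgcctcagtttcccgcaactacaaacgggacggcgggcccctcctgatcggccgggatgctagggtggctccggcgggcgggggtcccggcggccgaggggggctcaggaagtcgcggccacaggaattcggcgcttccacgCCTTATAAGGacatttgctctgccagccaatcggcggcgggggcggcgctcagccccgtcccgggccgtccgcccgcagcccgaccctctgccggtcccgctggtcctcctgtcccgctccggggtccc
Flna (chrX:71495110-71495409, minus strand): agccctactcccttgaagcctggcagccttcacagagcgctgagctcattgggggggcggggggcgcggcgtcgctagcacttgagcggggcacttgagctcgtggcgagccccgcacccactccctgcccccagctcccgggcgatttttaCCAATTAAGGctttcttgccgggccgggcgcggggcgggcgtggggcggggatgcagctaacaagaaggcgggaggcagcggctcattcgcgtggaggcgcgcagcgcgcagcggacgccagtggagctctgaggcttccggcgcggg
Srf (chr17:46693062-46693361, minus strand): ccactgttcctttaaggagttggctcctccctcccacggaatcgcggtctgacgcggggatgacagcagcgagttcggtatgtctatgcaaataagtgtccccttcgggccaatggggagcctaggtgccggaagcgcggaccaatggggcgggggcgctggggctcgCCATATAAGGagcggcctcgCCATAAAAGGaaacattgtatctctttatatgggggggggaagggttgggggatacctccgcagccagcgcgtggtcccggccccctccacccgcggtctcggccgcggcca

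The box lies 151 bases before the annotated start in Myl9, 79 in Cnn2, 98 in Flna, and 82 and 62 in Srf. The pattern searched (CC, then only A or T, then GG) is the same on both strands, so both were searched at once. The letters CATTCC, the core of the element bound by TEAD factors, stood on either strand in 8 of the 37 promoters. They stood in 13.6% of all promoters and 10.9% of those with at least 20 reads. Among the 8, the windows of Lpp, Tns1 and Tln2 lie at starts 328505, 125979 and 20311 bp downstream of that of the longest transcript. TATAAA stood on the sense strand in 1, Palld, against 6.78% and 3.77%. A match describes the letters in this window and is neither a measured site nor a cause.

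Polymerase density over the bodies of these genes was far higher in MEF than in MESC. Bodies were counted on the sense strand from 1000 bp after the start to the annotated end, and were compared where MESC or MEF had 50 reads or more. Of the 33 genes measured without a same-strand overlap, 17 were at least 4-fold denser in MEF and none was 4-fold denser in MESC, where 5.5% and 8.0% of all 9488 bodies compared passed the same limits. The other 16 stayed within 4-fold, and 32 of the 33 ratios pointed to MEF. The median gene was 4.08-fold denser in MEF (median log2 MESC over MEF of -2.03), while the median of all bodies was 0.30, toward MESC, and all 33 genes lay below that median. In bulk nuclei, more cells transcribing a gene and more polymerase per cell cannot be told apart. By role, 6 of 10 thin filament genes, 2 of 4 myosin genes, 4 of 7 crosslinkers, 5 of 9 focal adhesion genes and 0 of 3 regulators passed 4-fold.

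**Figure D1:**
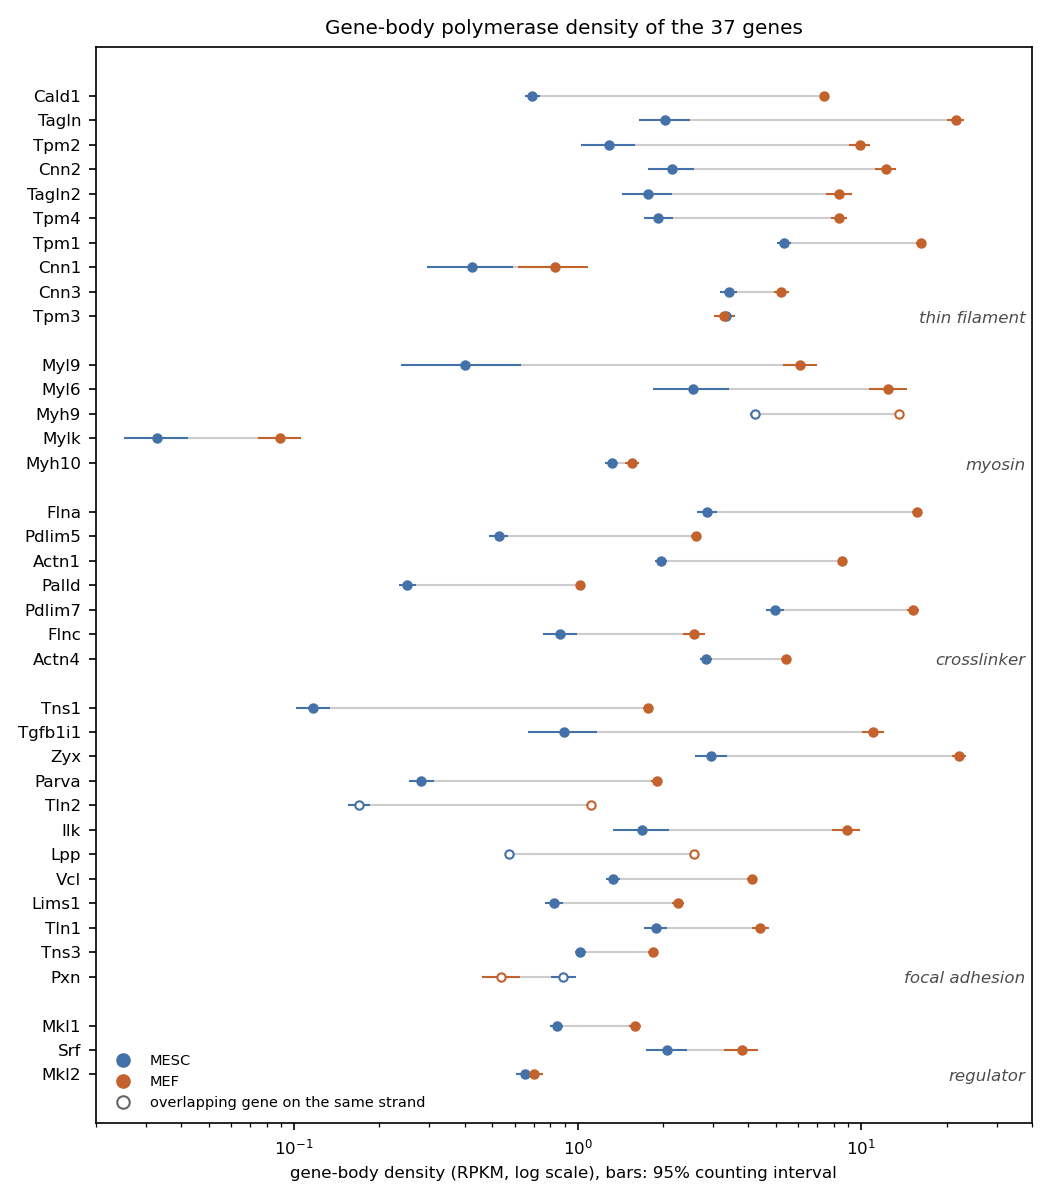
Gene-body density in reads per kilobase and sequencing depth (RPKM, log axis) of the 37 genes in the MESC and MEF libraries, grouped by role, with 95% counting intervals as bars and open circles for the 4 genes with an overlapping gene on the same strand. Nearly all pairs open toward MEF, most widely for Myl9 and Tns1, while Tpm3 and Mkl2 lie almost on top of each other and Pxn is reversed.

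Among thin filament genes, Cald1 and Tagln stood out. Cald1 (caldesmon, which restrains the actin-myosin interaction; chr6:34548500-34725454) had 1043 MESC reads and 8554 MEF reads, or 0.692 and 7.40 RPKM, a ratio of 10.7 (10.0 to 11.4). Tagln (transgelin or SM22, an actin-binding protein known as an early smooth muscle marker; chr9:45737711-45744141) had 95 and 768 reads, or 2.04 and 21.5 RPKM, a ratio of 10.5 (8.51 to 13.2). Both intervals lie well above the 4-fold limit. Tpm2, a tropomyosin (chr4:43527583-43536467), had 87 and 512 reads, or 1.29 and 9.88 RPKM, and a ratio of 7.68 (6.11 to 9.75).

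The remaining thin filament genes formed a gradient. Cnn2 (a calponin found in many cell types) was 5.70-fold, Tagln2 4.73-fold and Tpm4 4.33-fold denser in MEF, although the intervals of Tagln2 (3.76 to 5.99) and Tpm4 (3.78 to 4.97) reach below 4. Tpm1 was 3.04-fold denser in MEF and, at 5.33 RPKM, the densest of the 37 genes in MESC. Cnn3, the acidic calponin, was 1.53-fold denser in MEF. Cnn1, the smooth muscle calponin, was barely read in either library, with 34 MESC and 51 MEF reads (ratio 1.96, 1.24 to 3.11). Tpm3 did not separate the libraries: 779 MESC and 590 MEF reads gave 3.33 and 3.29 RPKM and a ratio of 0.99 (0.89 to 1.10), which turned to the MEF side under 5 of the alternatives of scaling or read choice.

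Myosin genes differed widely in their ratios. Myl9 (the regulatory light chain whose phosphorylation switches myosin on; chr2:156601156-156607394) had 18 MESC and 210 MEF reads, or 0.401 and 6.10 RPKM, and a ratio of 15.2 (9.40 to 26.2), whose interval holds that of Tns1. Myl6, the essential light chain, was 4.89-fold denser in MEF (3.49 to 6.99). Myh9, the heavy chain of non-muscle myosin IIA, was 3.22-fold denser in MEF outside a nested small RNA gene. Myh10, the heavy chain of myosin IIB, was near parity at 1.18 (1.09 to 1.28). Mylk, the kinase of the regulatory light chain, was the sparsest gene in both libraries, with 61 and 127 reads over 216500 bp (ratio 2.72, 1.99 to 3.75).

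Crosslinkers were led by Flna, whose protein joins actin filaments into networks and links them to integrins. Flna (chrX:71468800-71495159) had 622 MESC and 2615 MEF reads, or 2.86 and 15.7 RPKM, a ratio of 5.48 (5.02 to 5.99). V6.5 is a male line and MEF came from male embryos, so this X-linked gene is compared between cells of 1 sex. Pdlim5 was 4.95-fold, Actn1 4.34-fold and Palld 4.08-fold denser in MEF, the last 2 with intervals that end close to 4 on the lower side (4.10 and 3.77). Pdlim7 (3.07), Flnc (2.97) and Actn4 (1.91) stayed within 4-fold.

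Focal adhesion genes were led by Tns1 and Tgfb1i1. Tns1 (tensin 1, which ties actin to integrin tails; chr1:73956805-74171021) had 214 MESC and 2480 MEF reads, or 0.117 and 1.77 RPKM, and a ratio of 15.1 (13.1 to 17.5). Tgfb1i1 (Hic-5, a LIM protein of the paxillin family; chr7:135390499-135398287) had 52 and 490 reads, or 0.894 and 10.98 RPKM, and a ratio of 12.3 (9.22 to 16.7). Zyx (zyxin, which gathers at strained adhesions and filaments; chr6:42300057-42310145) had 230 and 1321 reads, or 2.95 and 22.1 RPKM, a ratio of 7.49 (6.51 to 8.66). The MEF density of Zyx was the highest of the 37 genes, above 99.7% of all bodies compared, and its interval overlaps that of Tagln.

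Ilk, Parva and Lims1 encode the partners of 1 adhesion complex, the kinase-like scaffold ILK with parvin and PINCH. Parva (chr7:119571220-119735206) had 393 MESC and 2038 MEF reads, or 0.281 and 1.90 RPKM, a ratio of 6.76 (6.07 to 7.55). Ilk was 5.27-fold (4.09 to 6.85) and Lims1 2.74-fold (2.50 to 3.00) denser in MEF, so the intervals of Lims1 and its partners do not overlap. Vcl (vinculin, recruited to adhesions under tension; chr14:21748655-21852895) had 1179 and 2792 reads, or 1.33 and 4.12 RPKM, a ratio of 3.09 (2.88 to 3.31). Tln1 (talin 1, the integrin activator; chr4:43544391-43575294) had 483 and 866 reads, or 1.88 and 4.41 RPKM, a ratio of 2.34 (2.09 to 2.62). Tns3 had a ratio of 1.80 (1.70 to 1.91).

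Besides Myh9, genes that overlap a small or predicted RNA gene on their own strand were Lpp, Tln2 and Pxn, and these 4 were measured over the part not covered by it. Tln2 was 6.57-fold (5.97 to 7.25) and Lpp, a LIM protein related to zyxin, 4.49-fold (4.31 to 4.68) denser in MEF. Pxn (paxillin, an adhesion scaffold) was the exception among the 37 genes: its density was 1.64-fold (1.36 to 1.98) higher in MESC, with 364 MESC and 170 MEF reads. With these 4 counted in, 19 of 37 genes passed 4-fold toward MEF and none toward MESC, against 5.52% and 8.00% of all bodies.

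The regulators differed less than most of the genes. Srf (chr17:46683788-46693111) had 147 MESC and 207 MEF reads, or 2.06 and 3.78 RPKM, a ratio of 1.84 (1.48 to 2.28). With the body cut into 4 equal parts, 71 of the 147 MESC reads lay in the last part, and the annotated start of the next gene on the same strand, Cul9, is 451 bp past the end of Srf. Over the first 3 parts, with 76 and 166 reads, the ratio was 2.85 (2.16 to 3.79), a comparison added after the data were seen. Mkl1 (MRTF-A; chr15:80842711-81021187) had 1282 and 1857 reads, or 0.843 and 1.59 RPKM, a ratio of 1.89 (1.76 to 2.03). Mkl2 (MRTF-B; chr16:13256574-13415156) had 879 and 729 reads, or 0.651 and 0.704 RPKM, a ratio of 1.08 whose interval (0.98 to 1.19) holds 1. Each of the 3 regulators thus lay between the all-gene median and the 4-fold limit in the MEF direction.

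Within families, the paralog with the most polymerase was not always the same in both libraries. Of the summed RPKM of both alpha-actinins, Actn1 took 41.0% in MESC and 61.2% in MEF, so that Actn4 was the denser gene in MESC (2.84 against 1.97 RPKM) and Actn1 in MEF (8.55 against 5.42). Among calponins, Cnn3 led in MESC with 57.0% of the summed density and Cnn2 in MEF with 66.9%. In each of these 4 comparisons the counting intervals of both genes are apart. Tns1 went from 10.3% of the tensin density in MESC to 49.0% in MEF, where it and Tns3 (1.77 and 1.84 RPKM) have overlapping intervals.

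Other families kept their leading gene. Myh9 led Myh10 with 76.2% in MESC and 89.7% in MEF, Flna led Flnc with 76.8% and 85.9%, and Tln1 led Tln2 with 91.8% and 79.8%. Tpm1 held 44.9% and 43.0% of the tropomyosin density, while Tpm3 went from 28.1% to 8.73% and Tpm2 from 10.8% to 26.2%. Mkl1 held 56.4% of the density of both MRTF genes in MESC and 69.3% in MEF.

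**Figure D2:**
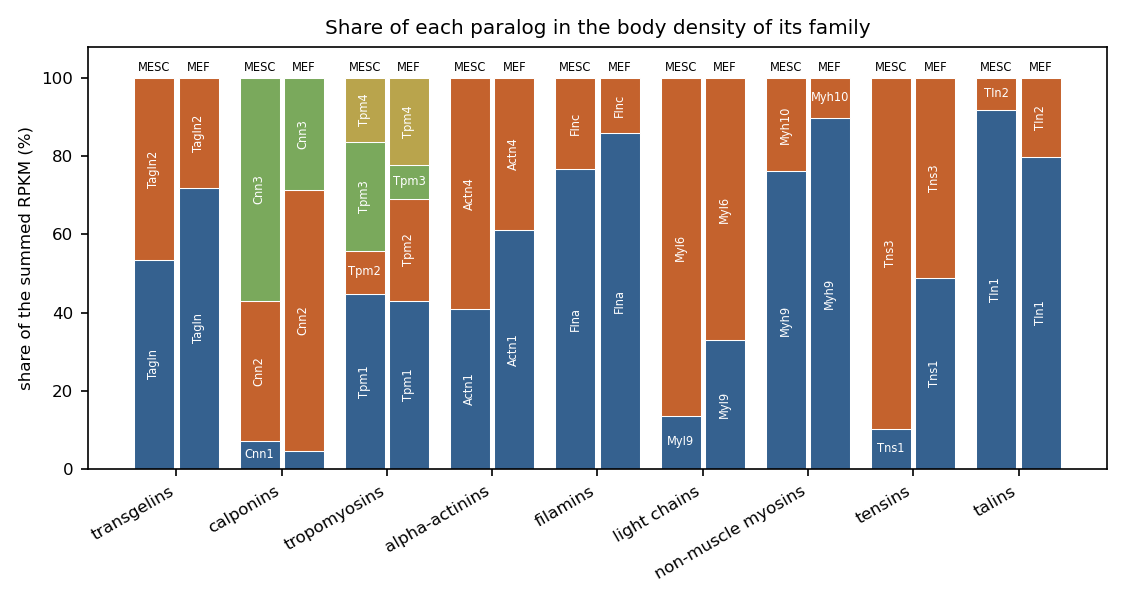
Share (%) of each paralog in the summed RPKM of its family, with the MESC library as the left bar and the MEF library as the right bar of each pair. The larger part changes from Actn4 to Actn1 and from Cnn3 to Cnn2, while Myh9, Flna and Tln1 stay ahead in both libraries.

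Along the bodies, MEF density was higher in each of the 4 equal parts for 29 of the 33 genes. Vcl was even, with ratios of 3.35, 2.99, 2.88 and 3.16 from the 5′ to the 3′ part. The exceptions were Cnn1, Mylk, Srf and Tpm3. In Mylk the ratio went from 0.22 on 12 MESC and 2 MEF reads, through 0.87 and 3.07, to 5.37 on 17 and 70 reads, so that most MEF reads lay in the last 2 parts of this gene. In Tns1 MEF density grew from 0.348 RPKM in the first part to 2.55 in the last, with ratios of 5.30, 26.8, 17.6 and 12.8.

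Cald1 showed the opposite slope in its ratio, from 16.8 and 19.8 in the first 2 parts to 7.99 and 7.32. MEF density was level there (7.86, 6.76, 7.72 and 7.26 RPKM), and MESC density was 0.467 and 0.342 before and 0.965 and 0.992 after. Cnn2 fell by this measure from 13.0 in the first part to 2.93 in the last, where 72 of its 119 MESC reads lay and where the start of the next gene, Abca7, is 432 bp past its end. Over its first 3 parts the ratio of Cnn2 was 9.94 (7.32 to 13.8).

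**Figure D3:**
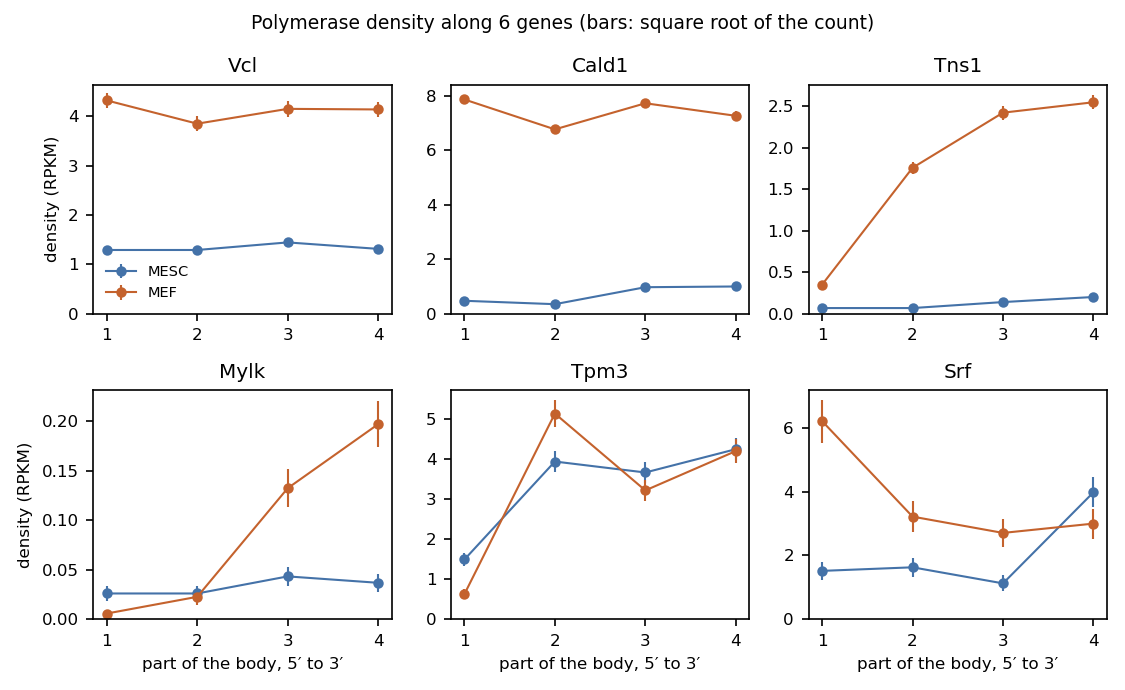
Body density (RPKM, linear axes from 0) in 4 equal parts of the gene body from 5′ to 3′ in both libraries for 6 genes, with the square root of the count as bars. Vcl is parallel, the MESC line of Cald1 steps up after the second part, MEF density of Tns1 and Mylk is lowest in the first part and highest in the last, Tpm3 crosses, and Srf crosses in its last part.

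At promoters (from 50 bp upstream to 300 bp downstream of the start of the longest transcript), 17 of the genes without overlap had at least 20 reads in 1 library. Of these, 10 were at least 4-fold denser in MEF and none in MESC, where 3.01% and 6.07% of all 4350 promoters passed the same limits. The median promoter was 4.93-fold denser in MEF. Since most of these promoters reached 20 reads only in MEF, the counts describe the promoters that could be measured and not all 37.

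Flna had 19 MESC and 151 MEF promoter reads (ratio 10.4, 6.41 to 17.7), Tpm2 had 5 and 45 (11.7, 4.68 to 37.9), and Myl9 had 8 and 60 (9.78, 4.66 to 23.7). Tgfb1i1, with 1 and 20 reads, and Cald1, with 2 and 21, gave ratios of 26.1 (4.17 to 1081) and 13.7 (3.35 to 120). Tagln, with 24 and 96 reads, had a ratio of 5.22 (3.31 to 8.54), below its body ratio. Zyx, Parva and Tns1 had too few promoter reads to compare: 5 and 12, 0 and 2, and 2 and 0.

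Of the regulators and adhesion genes named above, Vcl had 19 and 21 promoter reads, a ratio of 1.44 (0.74 to 2.83) that lies below its body ratio of 3.09. Tln1 had 22 and 46 (2.73, 1.61 to 4.76), and Creb3 starts within 2000 bp of it. Mkl2 had 7 and 25 (4.66, 1.96 to 12.8), while its bodies were near-equal. Srf had 6 and 11 and Mkl1 17 and 11, both under the minimum. Actn4 and Myh10 had more promoter reads in MESC, 91 against 61 and 89 against 47, although their bodies were denser in MEF. Their promoter ratios were 0.87 (0.62 to 1.22), an interval that holds 1, and 0.69 (0.47 to 0.99).

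**Figure D4:**
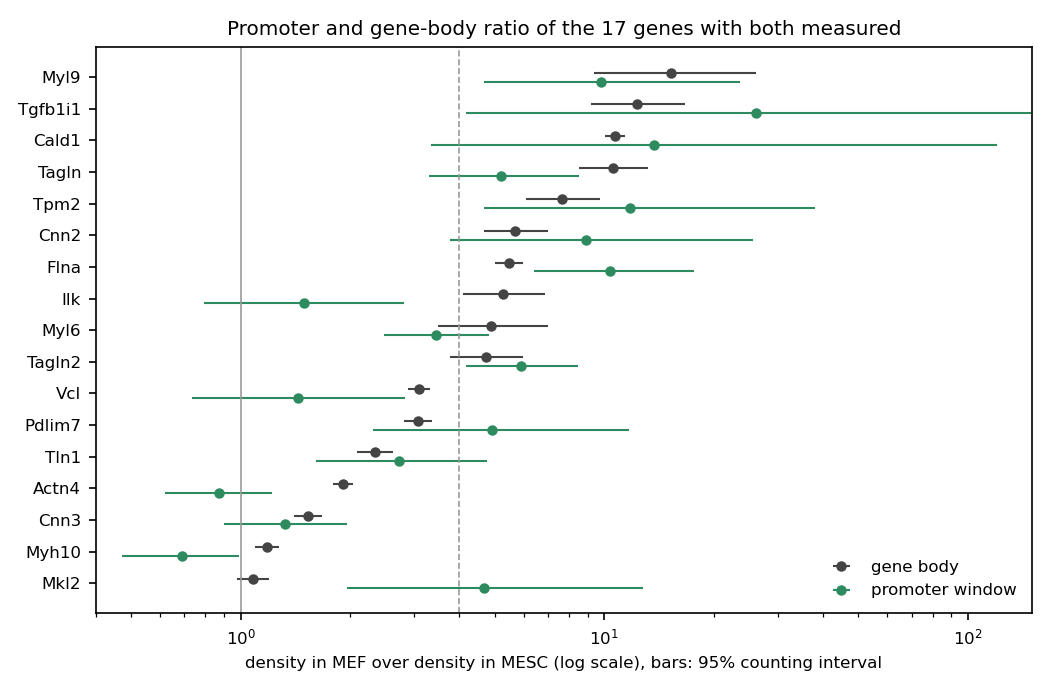
Density in MEF over density in MESC (log axis) at the promoter window and over the gene body for the 17 genes with both measured, sorted by body ratio, with 95% counting intervals; solid line at 1, dashed line at 4, and the upper bound of Tgfb1i1 runs past the axis. Actn4 and Myh10 lie on the MESC side of 1 at the promoter, Actn4 with an interval that holds 1, and on the MEF side over the body, and Mkl2 has a promoter ratio above its body ratio.

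The pausing index, promoter density over body density within a library, compares polymerase held near the start with polymerase in productive elongation. It needs 20 reads in both windows. In MEF it could be given for 17 genes, of which 10 had an index of at least 2, against 96.8% of all 2589 genes measured, and the median was 4.17 against 13.7. In MESC it could be given for 8 genes, all at 2 or more, against 96.3% of 3805, with a median of 6.08 against 10.5. The 7 genes under 2 in MEF were Tgfb1i1 (0.79), Pdlim7 (0.97), Ilk (1.17), Cald1 (1.23), Cnn2 (1.46), Tagln (1.93) and Tpm2 (1.97). The highest MEF indices were those of Mkl2 (15.4) and Myh10 (13.1). Flna had an index of 4.17, Myl9 4.26, Tln1 4.53 and Vcl 2.21 in MEF. When the annotated start with the most reads replaced that of the longest transcript, 15 of 20 genes reached 2 in MEF, against 97.3% of all genes. The median was then 4.27 against 13.3. The start with the most reads lay 1191 bp downstream in Tgfb1i1, 729 in Pdlim7, 509 in Ilk and 147452 in Cald1. The low indices given above for these genes thus do not describe that start.

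For 8 genes the index could be compared between libraries, which needs no scaling. It was higher in MESC with an interval above 1 for 4 of them: Ilk (3.52, 1.76 to 6.99), Actn4 (2.18, 1.55 to 3.09), Tagln (2.02, 1.17 to 3.37) and Myh10 (1.71, 1.18 to 2.52). None had an interval below 1. Over all 2237 genes measured in both libraries, 9.75% had an interval above 1 and 23.7% below it. The median ratio of the 8 was 1.57 and that of all genes 0.85. The index could be given for 17 genes in MEF, and the 8 are those that also reached the read minimum in MESC. Most genes of the set were less dense in MESC, so this minimum keeps those with many MESC promoter reads. Such a choice favours a higher MESC index. How far it raises the ratios of the 8 was not tested, and these ratios do not describe the other genes of the set. Rrp8 starts within 2000 bp of Ilk. The index of Ilk rests on the start of its longest transcript. Its start with the most reads, 73 in both libraries together, is 509 bp downstream and lies between the promoter window and the body. How far use of that start enters the ratio of Ilk was not tested.

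Antisense reads within 500 bp upstream of the start were counted for genes with at least 20 promoter reads and no other start within 2000 bp. At least 5 such reads were present at 5 of 6 genes in MESC, where 76.1% of all such genes had them, and at 13 of 15 in MEF, against 61.4%. In MEF the antisense count was 42 at Cnn2, 35 at Tpm2, 29 at Myl9, 20 at Cald1, 15 at Tgfb1i1, 14 at Flna and 22 at Vcl, and 3 at Tagln. The MESC counts at these genes were 13, 10, 17, 1, 1, 1, 30 and 3 in the same order. Srf, below the promoter minimum on its sense strand, had 15 antisense reads in MESC and 50 in MEF.

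Several of the genes have more than 1 annotated start, and for some the shares of reads at these starts differed between the libraries. Tpm3 gave no read at the start of its longest transcript. Its start 7025 bp downstream had 62 MESC and 16 MEF reads, 42.5% (34.3 to 50.9) and 17.2% (10.2 to 26.4) of the reads at all annotated starts of the gene. The next start, at 7791 bp, had 26 MESC and 36 MEF reads, 17.8% (12.0 to 25.0) and 38.7% (28.8 to 49.4). The window of 2000 bp before the first of these held 6 and 0 sense reads. At the first start 12 of the MESC reads lay at 1 position. The level at the first start was thus 2.97-fold (1.69 to 5.52) higher in MESC, while the body density of Tpm3 was near-equal. The start at 7791 bp lies just behind it, with 77 and 24 reads in the 2000 bp before, so its reads cannot be assigned to that start alone.

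Palld, too, was not read at its first start, and the first of the 4 parts of its body held 6 MESC and 14 MEF reads. The start 311530 bp downstream had 19 MESC and 91 MEF reads, a ratio of 6.25 (3.78 to 10.8), with 3 and 5 reads in the 2000 bp before it. A start further on, at 368828 bp, had 23 and 12 reads, a ratio of 0.68 (0.31 to 1.43), with 15 and 34 reads before it. The first of these took 74.6% (65.9 to 82.0) of reads at annotated starts in MEF and 40.4% (26.4 to 55.7) in MESC. The last part of the body, which holds both starts, had a ratio of 4.52, and the first 3 parts together 2.71 (2.28 to 3.22), so the 4-fold call of Palld rests on that last part.

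In Tpm1 the start near the 5′ end had 14 MESC and 37 MEF reads, with 4 and 6 in the 2000 bp before it. The internal start at 5499 bp had 36 and 21 in a stretch already crossed by polymerase, with 99 and 200 reads in the 2000 bp before it. Ilk used its first start about equally, with 21 and 24 reads, while its start 509 bp downstream had 12 MESC and 61 MEF reads (ratio 6.63), with 23 and 26 in the 2000 bp before it. Cald1 had 2 and 74 reads at a start 147452 bp downstream, where the 2000 bp before it held 22 and 137 reads. Windows at internal starts also count polymerase that began upstream, so only starts with few reads before them can be read as a start.

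**Figure D5:**
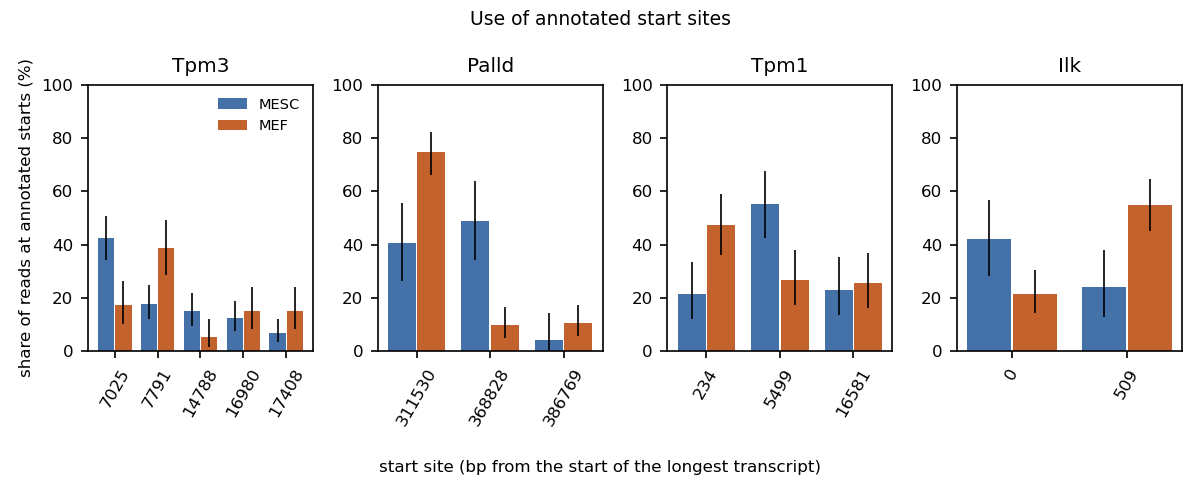
Share (%) of the reads at all annotated starts of a gene that fell at each start, with exact binomial intervals, for starts with at least 10 reads in 1 library in Tpm3, Palld, Tpm1 and Ilk; the horizontal axis names each start by its distance in bp from the start of the longest transcript. The share at the 7025 bp start of Tpm3 and at the 311530 bp start of Palld has intervals that are apart between MESC and MEF, while the intervals of the leading starts overlap within MESC in Palld and Ilk, and the internal start of Tpm1 lies in a stretch already crossed by polymerase.

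Among 81 other genes of the same machinery, 67 were measured, 10 overlapped another gene and 4 were under the minimum. Of the 67, 7 were at least 4-fold denser in MEF and 3 in MESC, against 5.5% and 8.0% of all bodies. Their median ratio was 1.46-fold toward MEF, and 58 lay below the all-gene median. They included Lmod1 (18.2-fold; leiomodin, an actin nucleator of smooth muscle), Myh11 (12.9-fold on 11 and 109 reads; smooth muscle myosin), Fhl2 (9.03-fold), Synpo (6.16-fold; synaptopodin of stress fibres), Csrp1 (5.04-fold) and Fhl3 (4.59-fold). Fhl2, Fhl3 and Csrp1 encode LIM-only proteins. The 3 denser in MESC were Myh14 (19.7-fold, 6.49 to 97.5, on 77 and 3 reads; the heavy chain of myosin IIC), Fermt1 (15.5-fold, 6.42 to 48.7; an epithelial kindlin) and Pdlim3 (10.2-fold, 3.74 to 38.6, on 53 and 4 reads).

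Of the signalling genes around contraction, Rhoa, Ptk2 and Rock1 were close to parity, while Rock2 was denser in MEF. Rhoa, the GTPase that drives stress fibres, was 1.23-fold (1.09 to 1.39) denser in MEF. Ptk2 (focal adhesion kinase), Rock1 and Rock2, all with an overlapping gene, had ratios of 1.22, 1.16 and 2.07 over their whole bodies. Myocd, the muscle partner of SRF, had 22 and 38 reads, under the minimum.

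Markers of the labelled cells followed the labels: all 5 ES cell markers were at least 4-fold denser in MESC and all 5 fibroblast markers in MEF. The MESC library held few fibroblast marker reads, with a summed density of 1.73 RPKM against 69.1 in MEF, and Col1a1, Col1a2, Thy1, Postn and Pdgfrb stood at 0.25% to 7.67% of their MEF density (median 3.01%). The 37 genes stood at 6.57% (Myl9) to 165% (Pxn) of their MEF density in MESC, with a median of 24.5%. Which part of the MESC reads over the 37 genes came from the irradiated feeders was not tested. Smooth muscle markers summed to 2.54 RPKM in MESC and 5.97 in MEF, of which Smtn alone gave 2.24 and 3.94. Myh11 and Lmod1 were 12.9-fold and 18.2-fold denser in MEF, Smtn was 1.76-fold, and Myocd and Des were under the minimum. Macrophage markers summed to 0.0475 and 2.37 RPKM. Of the skeletal muscle markers, Myod1, Myog and Myf5 had no body read in either library, which allows up to 3 reads in each. Ttn had 127 MESC and 93 MEF reads, a MEF over MESC ratio of 0.96 (0.72 to 1.26). Ckm, which overlaps another gene on its strand, had 4 and 0 reads. Endothelial markers summed to 0.487 RPKM in MESC and 0.268 in MEF, and cardiac markers to 0.356 and 0.271. Among the cardiac markers, Ryr2 was 5.39-fold (3.62 to 8.33) denser in MESC, on 197 and 28 reads.

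The MESC reads came in lengths of 35 and 36 bases, which the labels do not tie to samples, and MEF reads in 35. Of 30 genes of the set with at least 50 MESC body reads, 20 were less dense in the 35-base than in the 36-base reads with an interval below 1, and none was denser, against 15.5% and 4.6% of all 8959 bodies. The median ratio was 0.74 for these genes and 0.95 for all bodies, lowest for Tgfb1i1 (0.43), Tpm1 (0.46) and Tpm2 (0.49). The fibroblast markers Col1a1 (0.86, 0.53 to 1.39), Col1a2 (0.81, 0.58 to 1.12) and Pdgfrb (0.82, 0.51 to 1.32) had wide intervals. Each holds both 1 and 0.74, so these markers cannot be told apart from the genes of the set or from all bodies. ES cell markers went both ways. Nanog (0.58, 0.41 to 0.81) and Sall4 (0.86, 0.747 to 0.999) lay below 1 and Zfp42 (1.45, 1.11 to 1.89) above it. The intervals of Pou5f1 (0.99, 0.71 to 1.36) and Tdgf1 (0.95, 0.84 to 1.08) hold 1. Why the 2 sets of MESC reads differ in the genes of the set was not tested. With the 35-base reads alone 18 genes were at least 4-fold denser in MEF, against 7.11% of all bodies. With the 36-base reads alone 14 were, against 6.01%.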

How the data were processed

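Per the labels' protocols, run-on RNA was base-hydrolysed and captured with an antibody against the brominated base. The deposited files list 1 aligned read per line, a raw read count of 1 with no normalization. Per the series design text, the authors aligned with Eland to mm9 and removed reads in regions similar to rRNA. Even so, 11.5% of the MESC and 16.4% of the MEF reads lay at loci similar to ribosomal DNA. These reads stayed in the totals used for RPKM. With them left out of the totals, 17 genes still passed 4-fold toward MEF, against 5.88% of all bodies. The median log2 MESC over MEF was then -2.11 for these genes and 0.22 for all bodies. The sources used here do not give the version, or how multiple matches and duplicates were handled. Per the file headers, each file pools all samples of its cell type, so the planned edgeR test was not made. MESC held 8616592 reads and MEF 6583644.

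Reads were counted by 5′ end and strand over GENCODE vM1 models, the longest transcript per gene, leaving out bodies that overlap another gene on the same strand. RPKM used reads outside the mitochondrial genome. Calls needed a 4-fold ratio, and counts below 3 were set to 3 for it. Intervals are exact (conditional Clopper-Pearson for ratios). Read positions were checked against mm9 on a subset, where 93.0% (MESC) and 95.5% (MEF) matched with at most 2 mismatches. Python 3 with numpy, pandas and scipy, and edgeR for TMM factors, were used, and the counting was tested on simulated data.

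The 37 genes, the list of 81 and the markers were chosen with earlier results of these data known. Full values were given to the 8 genes with the largest body ratio and to Srf, Mkl1, Mkl2, Vcl, Tln1 and Flna. Among the results on promoter sequences and on the other genes of the machinery, 2 items are not reported here.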

Additional observations from a re-analysis of the deposited data

How the results depend on the processing

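No paired analysis was possible because the deposited files pool the samples of each cell type, and for the same reason no sample could be left out. The count of genes at least 4-fold denser in MEF lay between 14 and 19 under every 4-fold alternative, where 4.21% to 7.11% of all bodies passed. It was 24 at 2-fold, where 12.6% of all bodies passed. No alternative called a gene toward MESC at body or promoter. The 14 left when each position was counted once, and the 14 left with 36-base reads alone, were all among the 17. The gene at the median log2 MESC over MEF of -2.03 was Palld, with a counting interval of 3.77 to 4.42-fold toward MEF. That interval gives the counting error of Palld alone and not the spread of a median over the genes. The median moved beyond it to -2.33 with scaling by the median ratio, -2.31 with TMM factors and -2.30 with 35-base reads alone. It also moved beyond that interval to -1.83 with 36-base reads alone and to -1.67 for bodies counted from 3000 bp. Without the last of 4 equal parts of the body, an alternative added after seeing the data, the median was -1.91, again beyond that interval. Both rescalings move the median of all bodies from 0.30 to near 0. At 2-fold, 20 in place of 7 of the 67 other genes lay toward MEF, against the same 12.6%. A promoter window ending at 150 bp left 8 promoters, 4 of them called toward MEF, against 2.36% of all promoters. Median pausing indices were then 7.67 on 3 genes in MESC and 5.73 on 8 genes in MEF. The medians of all genes under this window were 17.7 and 24.4. Counting each position once left 7 of 13 promoters called toward MEF, against 2.12% of all promoters. Among single genes, only Tpm3 changed direction. Low read numbers limit Cnn1, Mylk, Myl9 and most promoters in MESC.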
